A study of Mus musculus with 3 samples.

Results

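The 39 mouse Hox genes were examined in ATAC-seq peak lists of sorted cortical projection neurons. ATAC-seq uses a transposase to cut and tag open DNA, and a peak is a stretch where a peak caller found more cuts than its background. Members were the protein-coding genes of the RefSeq gene table for GRCm38.p6 (the build named mm10) whose symbol is Hoxa, Hoxb, Hoxc or Hoxd followed by digits only, which gave 39 of 21887 genes. They lie in 4 clusters: 11 Hoxa genes on chromosome 6, 10 Hoxb genes on chromosome 11, 9 Hoxc genes on chromosome 15 and 9 Hoxd genes on chromosome 2. A gene was counted as having a gene-end peak where a peak came within 1 kb of either end of its annotated body. Peaks were also taken across each cluster and 50 kb on each side, and these windows held 156 of the 204313 regions made by merging the lists.

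Callosal projection neurons (CPN) were profiled in 2 libraries, CPN 1 and CPN 2, and link the cerebral hemispheres, while corticospinal motor neurons (CSMN), profiled in 1 library, project to the spinal cord. Each library came from 50000 live mouse brain cells sorted by FACS. The labels call the sorts biological replicates, and genotype, strain, age, any treatment and the marks used for sorting are not given in the sources used here. With 1 CSMN library no test between the cell types was possible, and a difference between the cell types and a difference between libraries cannot be told apart.

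Hox genes encode homeodomain transcription factors that give cells their position along the head-to-tail axis. Their order along a cluster follows the order of their expression domains in the hindbrain, spinal cord and trunk, and the cerebral cortex lies in front of these domains. In cells that do not use them, Hox clusters are textbook targets of Polycomb repression, and sites bound by CTCF divide the clusters into chromatin domains. HOX proteins often bind DNA together with PBX and MEIS cofactors of the TALE class.

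Few Hox promoters carried a peak in every library, and the sequences of those that did are given here. RefSeq promoter entries for GRCm38.p6, from 250 bases before to 50 after a transcription start, matched 22 of the 39 genes with 24 promoters. The genes without an entry included Hoxa4, Hoxb2, Hoxb3, Hoxb5, Hoxb6, Hoxb7, Hoxb9, Hoxb13, Hoxc5, Hoxc6, Hoxc8, Hoxc9, Hoxc10, Hoxc11, Hoxc12 and Hoxc13. Peaks overlapped 5 of the 24 promoters in CPN 1, 9 in CPN 2 and 5 in the CSMN list, and 13 promoters overlapped none. Among all 21263 protein-coding promoters the shares were 64.1% in CPN 1, 64.2% in CPN 2 and 61.1% in CSMN, against 20.8%, 37.5% and 20.8% of the Hox promoters. A peak in all 3 libraries lay over 3 of the 24 Hox promoters (12.5%), where 59.5% of all promoters had one. These 3 were all Hoxd genes: Hoxd1 at chr2:74762730-74762979, Hoxd9 at chr2:74697513-74697762 and Hoxd10 at chr2:74691641-74691890, each on the plus strand. The 250 bases before each start are printed 5′ to 3′ with the bases that lay under a peak in all 3 libraries in capitals.
Hoxd1: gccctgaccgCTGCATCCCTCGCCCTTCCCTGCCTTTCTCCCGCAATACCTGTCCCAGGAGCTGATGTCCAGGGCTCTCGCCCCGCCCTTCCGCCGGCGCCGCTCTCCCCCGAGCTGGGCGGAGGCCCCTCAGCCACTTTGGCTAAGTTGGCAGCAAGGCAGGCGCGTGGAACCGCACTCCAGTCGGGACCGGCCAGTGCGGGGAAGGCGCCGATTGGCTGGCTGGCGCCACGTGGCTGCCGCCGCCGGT
Hoxd9: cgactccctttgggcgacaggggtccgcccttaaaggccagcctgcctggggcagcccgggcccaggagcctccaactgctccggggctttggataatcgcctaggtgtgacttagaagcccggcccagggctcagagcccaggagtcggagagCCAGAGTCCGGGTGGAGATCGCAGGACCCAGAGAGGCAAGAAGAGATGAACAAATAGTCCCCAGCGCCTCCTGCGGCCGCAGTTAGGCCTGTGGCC
Hoxd10: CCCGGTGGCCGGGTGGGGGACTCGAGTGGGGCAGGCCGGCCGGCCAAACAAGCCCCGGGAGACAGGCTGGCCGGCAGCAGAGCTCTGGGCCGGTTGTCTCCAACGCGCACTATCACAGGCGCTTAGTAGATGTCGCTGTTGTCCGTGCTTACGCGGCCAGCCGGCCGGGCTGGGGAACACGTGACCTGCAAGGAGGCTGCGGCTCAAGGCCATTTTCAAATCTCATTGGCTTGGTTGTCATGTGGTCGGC

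Peaks of all 3 libraries covered 240 of the 250 bases before Hoxd1, the last 96 before Hoxd9 and all 250 before Hoxd10. Hoxd1 acts in sensory neurons of the mouse, and Hoxd9 and Hoxd10 pattern the lumbar spinal cord and the limb. These promoters held 29, 20 and 22 CpG dinucleotides in 300 bases, and the median was 14.5 over the 24 Hox promoters and 13 over all promoters. Other Hox promoters held as many CpG or more without a peak in every library. The Hoxa13 promoter held 45, the most of any Hox promoter, and overlapped a peak in CPN 2 alone, and the Hoxa6 promoter held 26 and overlapped none.

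The Hoxb promoters with an entry, those of Hoxb1, Hoxb4 and Hoxb8, overlapped no peak in any list. Promoters were searched on both strands for the HOX-PBX motif TGATNNAT (N is any base), which reads ATNNATCA on the other strand. Its letters were found in 4 of the 24 Hox promoters (16.7%), those of Hoxa2, Hoxb1, Hoxb8 and 1 promoter of Hoxd11, against 7.45% of all promoters. Hoxb1, a hindbrain gene known to maintain its own expression through HOX-PBX sites upstream of its start, and Hoxb8, a gene of the trunk and spinal cord, are printed with the matched letters in capitals. Their 250 bases are chr11:96365508-96365757 and chr11:96281655-96281904, both on the plus strand.
Hoxb1: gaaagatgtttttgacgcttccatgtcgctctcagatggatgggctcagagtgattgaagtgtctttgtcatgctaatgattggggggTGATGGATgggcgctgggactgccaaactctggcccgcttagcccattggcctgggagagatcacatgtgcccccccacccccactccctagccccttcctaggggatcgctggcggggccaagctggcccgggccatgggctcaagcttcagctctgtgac
Hoxb8: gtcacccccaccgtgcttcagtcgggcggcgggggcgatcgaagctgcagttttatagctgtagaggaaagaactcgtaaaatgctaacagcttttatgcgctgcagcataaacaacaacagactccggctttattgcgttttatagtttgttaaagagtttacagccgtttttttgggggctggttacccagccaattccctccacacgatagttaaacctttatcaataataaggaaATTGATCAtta

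Both sequences were without a peak in all 3 lists, and a match of letters is not evidence of a bound site. The promoter windows are narrow, so the wider gene-end rule was used for all 39 genes.

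The 3 lists differed in length and strength, and this bears on every count. They held 134018 peaks in CPN 1, 158779 in CPN 2 and 98067 in CSMN, covering 54.7, 47.2 and 39.7 Mb. The median fold enrichment, the authors' value of each peak over the caller's background, was 3.82, 3.68 and 2.86. A −log10 q of at least 5, called strong here, was reached by 72.4%, 65.4% and 55.2% of peaks. Depth is unknown, since the lists carry no read totals. Of 8 marker genes of excitatory projection neurons 7, 8 and 6 had a gene-end peak in CPN 1, CPN 2 and CSMN. For markers of other cells the counts were 7, 7 and 7 of 7 for endothelial and mural cells (highest gene-end folds of 3.35 to 9.07, 3.75 to 7.65 and 2.43 to 4.2), 4, 3 and 2 of 6 for microglia (2.43 to 11.9, 3.43 to 14.6 and 3.04 to 6.16) and 5, 5 and 4 of 6 for spinal and hindbrain motor neurons (2.49 to 13.1, 3.35 to 14.8 and 2.79 to 9.88). Among all protein-coding genes 69.2%, 70.3% and 66.7% had a gene-end peak, so these counts of few genes do not identify the sorted cells. The microglial genes C1qa and Csf1r had no gene-end peak in any list, and the part of other cells in the Hox peaks was not tested.

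Most Hox genes had a gene-end peak in the callosal lists and fewer had one in the corticospinal list. The counts were 28 of 39 genes in CPN 1 (71.8%), 30 in CPN 2 (76.9%) and 17 in CSMN (43.6%). Among all 21887 protein-coding genes the shares were 69.2%, 70.3% and 66.7%, so the Hox share was near the background in both CPN lists and below it in CSMN. The peaks were weak beside those of other genes. The median of the highest gene-end fold was 3.92, 4.24 and 2.69 over the Hox genes with a peak, and 12.8, 12.7 and 7.81 over all genes with one. Strong peaks were found at 22, 22 and 7 Hox genes, which is 56.4%, 56.4% and 17.9% of them, where the shares over all genes were 66.2%, 66.4% and 61.8%. In these lists 40, 46 and 19 peaks lay in the gene-end windows, and 2, 3 and 1 of them counted for more than 1 gene, so neighbouring Hox genes are not independent of each other.

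By library, 14 Hox genes (35.9%) had a gene-end peak in all 3 lists, where 64.1% of all genes did. In another 12 (30.8%) the CPN libraries each had a peak and CSMN had none, a pattern of 3.34% of all genes. A peak in CSMN alone was seen at 1 gene, Hoxc12 (all genes 1.41%). CSMN and 1 CPN library each had a peak at Hoxc6 and at Hoxd4 (1.15%), but the peaks at each gene did not overlap. A peak in 1 CPN library alone was seen at 4 genes, among them Hoxa2, Hoxb6 and Hoxd11 (3.46%). No gene-end peak was found for 6 genes, Hoxa7, Hoxa9, Hoxb3, Hoxb4, Hoxc4 and Hoxd10 (all genes 26.5%).

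**Figure D1:**
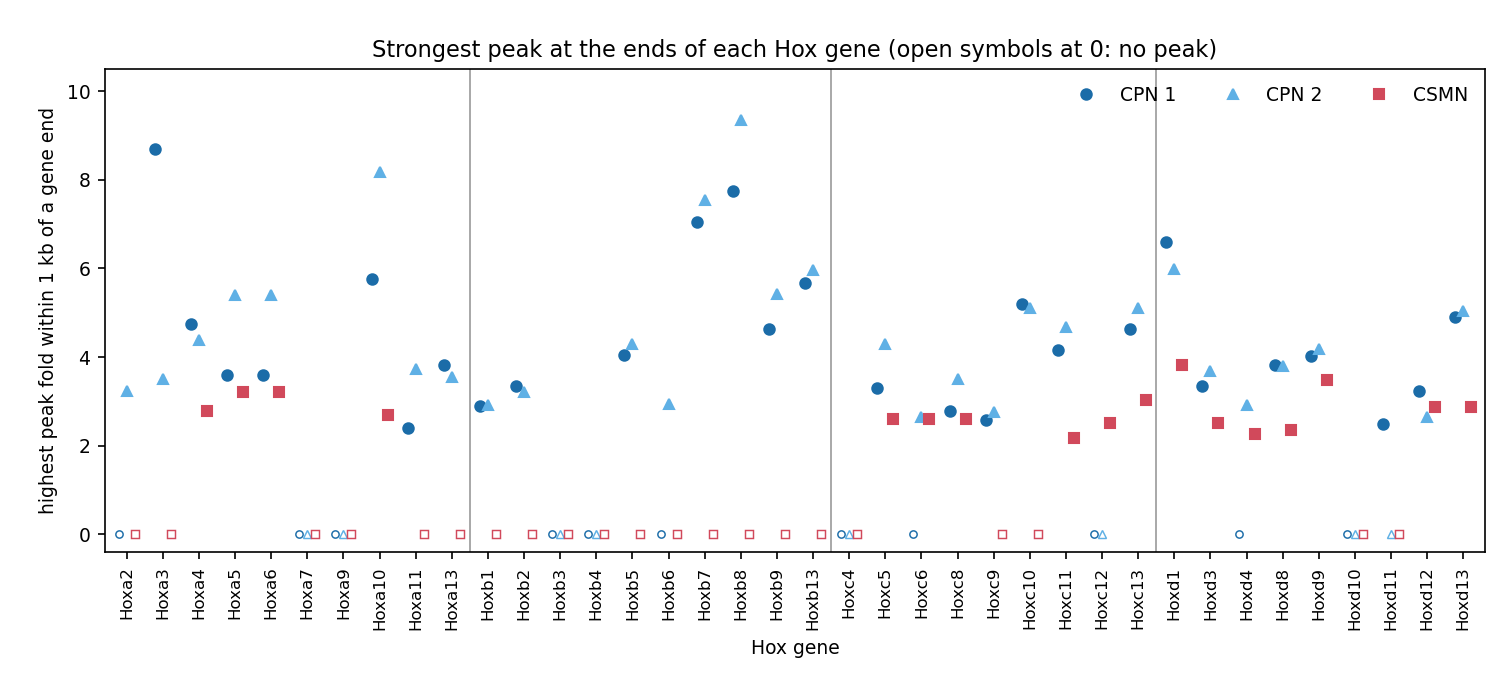
Highest fold of the peaks within 1 kb of either end of each Hox gene drawn (horizontal axis, ordered by cluster and number) in CPN 1, CPN 2 and CSMN, with open symbols at 0 where a library had no such peak. The 10 Hoxb genes have no filled CSMN square, while Hoxb8 and Hoxb7 carry CPN peaks of 7.05 to 9.35 fold.

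The clusters did not follow 1 pattern. Gene-end peaks were found at 8, 8 and 4 of 11 Hoxa genes in CPN 1, CPN 2 and CSMN. The Hoxb counts were 7, 8 and 0 of 10. Hoxc had 6, 7 and 6 of 9 genes, and Hoxd had 7, 7 and 7 of 9. Thus the callosal lists held 66.7% to 80.0% of the genes of every cluster, while the corticospinal list ran from 0.00% of Hoxb genes to 77.8% of Hoxd genes, as the plot of the strongest peak per gene shows. With each list held to its strongest peaks, as many as the shortest list has, Hoxc had 4, 5 and 6 genes, Hoxd 6, 5 and 7, and Hoxb 6, 5 and 0. Strong CSMN peaks were found at 2 Hoxa, 0 Hoxb, 1 Hoxc and 4 Hoxd genes.

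The Hoxb genes had some of the highest folds among the Hox genes in the callosal lists. The best peak at Hoxb8 reached 7.75 fold in CPN 1 and 9.35 fold in CPN 2, with −log10 q values of 36.1 and 39.8, and CSMN had no peak within 1 kb. It lay at chr11:96278887-96279029, a short intergenic region 372 bp from the annotated gene end. Hoxb8 is known for its roles in the spinal cord and in blood and microglial lineages. Hoxb7, a thoracic patterning gene, had 7.05 and 7.54 from a region at chr11:96284176-96284857 that lies inside the neighbouring Hoxb8 body. Hoxb13, the gene of the tail end of the body axis, had 5.67 and 5.96, and its region at chr11:96194069-96194586 spanned an end of the annotated gene. Hoxb9 had 4.63 and 5.43, Hoxb5 had 4.05 and 4.30, and the hindbrain gene Hoxb2 had 3.35 and 3.21. In each of these 6 genes both CPN libraries had a peak and CSMN had none. Hoxb1 had weaker peaks of 2.89 and 2.92 that did not overlap each other, and Hoxb6 had 2.94 in CPN 2 alone. Both are given to complete the cluster, after their values were seen.

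The nearest CSMN peak to a Hoxb gene end was 1649 bp away, at Hoxb6, and the median over the 10 genes was 7690 bp. It was 39606 bp for Hoxb2, 38412 bp for Hoxb13 and 53720 bp for Hoxb1. The medians of the same distance in the callosal lists were 642 bp in CPN 1 and 510 bp in CPN 2. For the other clusters the CSMN medians were 1137 bp (Hoxa), 345 bp (Hoxc) and 556 bp (Hoxd), so the wide gap was at Hoxb among the 4 clusters. These distances were computed after the counts had been seen.

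Genes were also compared at like callosal fold, a comparison chosen after the values were seen. Of all genes with a gene-end peak in both CPN lists, 4.94% had no CSMN peak, against 12 of the 26 such Hox genes. These genes were put in bins by the lower of their CPN folds. Of all such genes with a lower fold from 4 to under 8, 2657 of 2835 also had a CSMN peak and 6.28% did not. The 5 Hoxb genes in that bin all lacked one, while the Hoxa (2 of 2) and Hoxd (3 of 3) genes had one and Hoxc had 2 of 3. Under a fold of 4, 38.8% of all such genes had no CSMN peak, against 2 of 2 Hoxb, 3 of 5 Hoxa, 1 of 3 Hoxc and 0 of 3 Hoxd genes. No Hox gene had a lower fold of 8 or more, where 10534 of 10551 genes were matched. The bins hold few Hox genes, and adjacent genes can share a peak. A CSMN peak at either gene end counted, so a matched gene need not share a site. Hoxd3 and Hoxc5 counted as matched, although their CSMN peaks lay apart from the CPN peaks. Hoxa3 counted as unmatched, although CSMN had a peak of 5.09 fold just outside the limit.

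**Figure D2:**
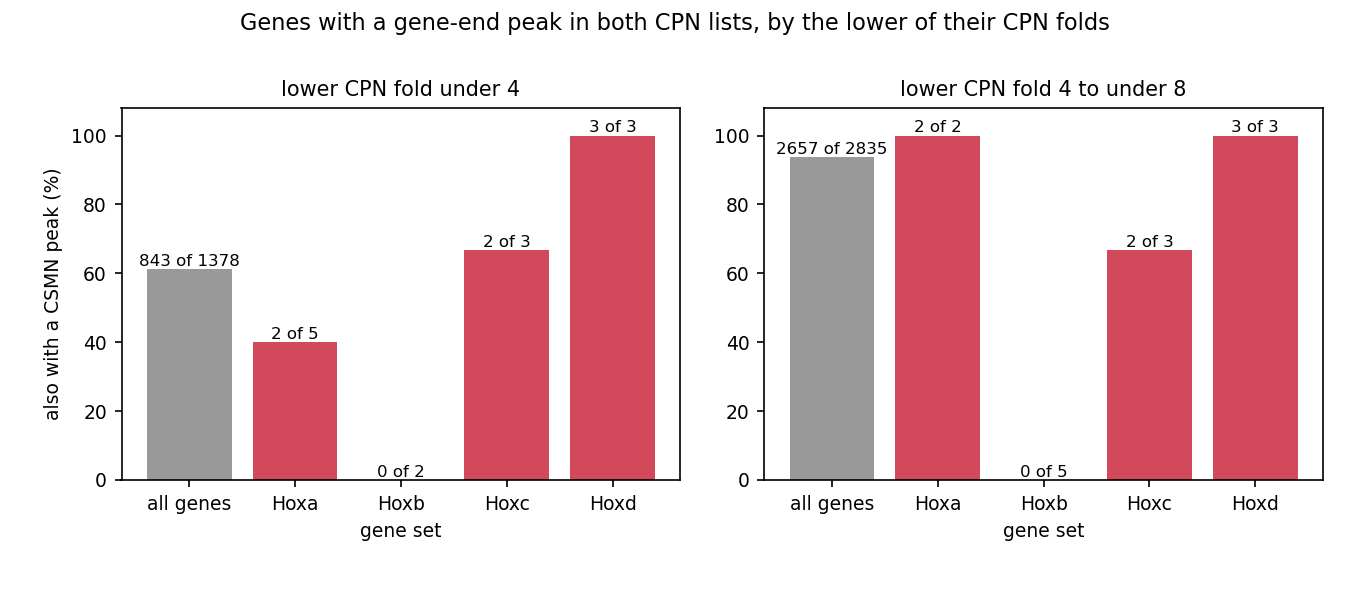
Share of genes with a gene-end peak in both CPN lists that also had one in CSMN (vertical axis, percent), for all protein-coding genes (grey) and each Hox cluster (red), in 2 bins of the lower CPN fold, with the counts above the bars. Hoxb stands at 0 in both panels and Hoxd at 100%. A CSMN peak at either gene end counted, whether or not it overlapped the CPN peaks.

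The Hoxd genes differed from the Hoxb genes, with peaks in every library at 6 of 9 genes (66.7%), near the 64.1% of all genes. Their CSMN share of 77.8% stood beside 66.7% of all genes, and strong CSMN peaks were at 44.4% against 61.8%. At Hoxd1 the folds were 6.59, 5.99 and 3.82 in CPN 1, CPN 2 and CSMN, the last being the highest CSMN gene-end fold of any Hox gene. Hoxd13, which patterns the digits, had 4.91, 5.04 and 2.86. Hoxd9 had 4.02, 4.18 and 3.47 over its start. Hoxd8, a trunk gene, had 3.82, 3.80 and 2.34. Hoxd12, a limb gene, had 3.24, 2.65 and 2.86, and Hoxd3, expressed from the hindbrain backwards, had 3.34, 3.69 and 2.52. At Hoxd3 the CPN 1 peak lay over the gene start and the CPN 2 peak began 156 bp inside the gene. The CSMN peak lay near the other end, so a peak in all 3 libraries was not always a shared site. Hoxd10 counted as having no gene-end peak, although all 3 libraries had a peak at chr2:74691528-74691981 (4.63, 7.24 and 3.38) over its promoter, because its annotated body begins upstream of that start.

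In Hoxa, 4 genes had a peak in all 3 lists. Hoxa10, a gene of the lumbar spine, had 5.77, 8.17 and 2.69. Hoxa4, a neck and hindbrain gene, had 4.74, 4.38 and 2.78. Hoxa5, which acts in phrenic motor neurons and the lung, and its neighbour Hoxa6 shared a peak of 3.59, 5.39 and 3.20. The limb genes Hoxa13 (3.82 and 3.56) and Hoxa11 (2.39 and 3.74) had CPN peaks only. The Hoxa11 peaks of CPN 1 (chr6:52245237-52245567) and CPN 2 (chr6:52246630-52246787) did not overlap. At Hoxa13, Hoxc11 and Hoxd12 the strongest gene-end peaks of CPN 1 and CPN 2 also lay at different places. At Hoxa4 CPN 2 had 2 peaks of equal fold (4.38), and 1 of them overlapped the strongest CPN 1 peak. Hoxa2, which patterns the hindbrain and the face, had 3.23 in CPN 2 alone.

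Hoxa3, a gene of the throat and hindbrain, shows how the 1 kb limit acts. Its fold of 8.68 in CPN 1 came from a region at chr6:52211319-52212123 that ended 944 bp from the gene end. CPN 2 (10.4) and CSMN (5.09) had peaks in the same region that ended outside the limit, that of CSMN 1137 bp from the gene end. Hoxa3 was therefore counted as without a CSMN peak, and its CPN 2 value of 3.49 came from the other end of the gene. Just outside the limit also lay Hoxa9, whose nearest peaks were 1070, 1170 and 1047 bp away with folds of 9.79, 10.1 and 5.88, and a region 1022 bp from Hoxc6 with 7.63, 8.43 and 3.47. Just inside it were the CSMN peak of Hoxd3 at 950 bp and the CPN 2 peak of Hoxd4 at 922 bp. With a limit of 5 kb, 38, 39 and 30 Hox genes had a peak, and Hoxb had 9, 10 and 3 of 10.

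The Hoxc genes were intermediate. Hoxc13, which acts in hair and nails, had 4.63, 5.11 and 3.04. Hoxc11, a gene of the lumbosacral cord, had 4.16, 4.68 and 2.17, and Hoxc8, which patterns brachial motor neurons, had 2.78, 3.51 and 2.60. At Hoxc5, which acts with Hoxa5 in phrenic motor neurons, the CPN peaks (3.30 and 4.30) and the CSMN peak (2.60) were separate regions on the 2 sides of the gene end. Hoxc10, a lumbar motor neuron gene, had 5.20 and 5.11 and no CSMN peak. Of the genes with a weaker peak, Hoxc6, Hoxc9, Hoxc12, Hoxd4 and Hoxd11, had folds from 2.26 to 2.91 in the lists where they had one.

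The genes were also grouped by their number, which follows their order along the body axis. Of the 12 anterior genes (numbers 1 to 4), 7, 8 and 4 had a gene-end peak in CPN 1, CPN 2 and CSMN. Of the 11 central genes (5 to 8) the counts were 8, 10 and 6, and of the 16 posterior genes (9 to 13) they were 13, 12 and 7. Among all genes the shares were 69.2%, 70.3% and 66.7%. The CSMN shares of the groups were 33.3%, 54.5% and 43.8% in the same order, each below that of all genes. The CPN shares ran from 58.3% (anterior, CPN 1) to 90.9% (central, CPN 2), on both sides of those of all genes. In each group the CSMN count was the lowest of the libraries, and none of the groups lacked CSMN peaks as Hoxb did.

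Across the cluster spans, from the first to the last Hox gene, the same contrast between clusters was seen in the number of peaks and in covered length. The Hoxa span (106 kb) held 21, 27 and 10 peaks, which covered 7.01%, 5.22% and 3.76% of it. The Hoxb span (chr11:96194316-96368254, 174 kb) held 15, 23 and 4 peaks, covering 2.69%, 2.96% and 0.50%. The Hoxc span (chr15:102921131-103036856, 116 kb) held 18, 25 and 10, covering 4.79%, 4.6% and 2.56%, and the Hoxd span (chr2:74668225-74765142, 96.9 kb) held 21, 22 and 18, covering 8.97%, 8.18% and 6.30%. Peaks covered 5.35%, 4.86% and 2.82% of the 4 spans together and 3.10%, 2.67% and 2.17% of all protein-coding gene bodies. The Hoxb span was thus below the gene-body level in CSMN and near it in CPN, while the Hoxd span was above it in all 3 lists. With the 50 kb flanks the windows held 100, 129 and 56 peaks.

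**Figure D3:**
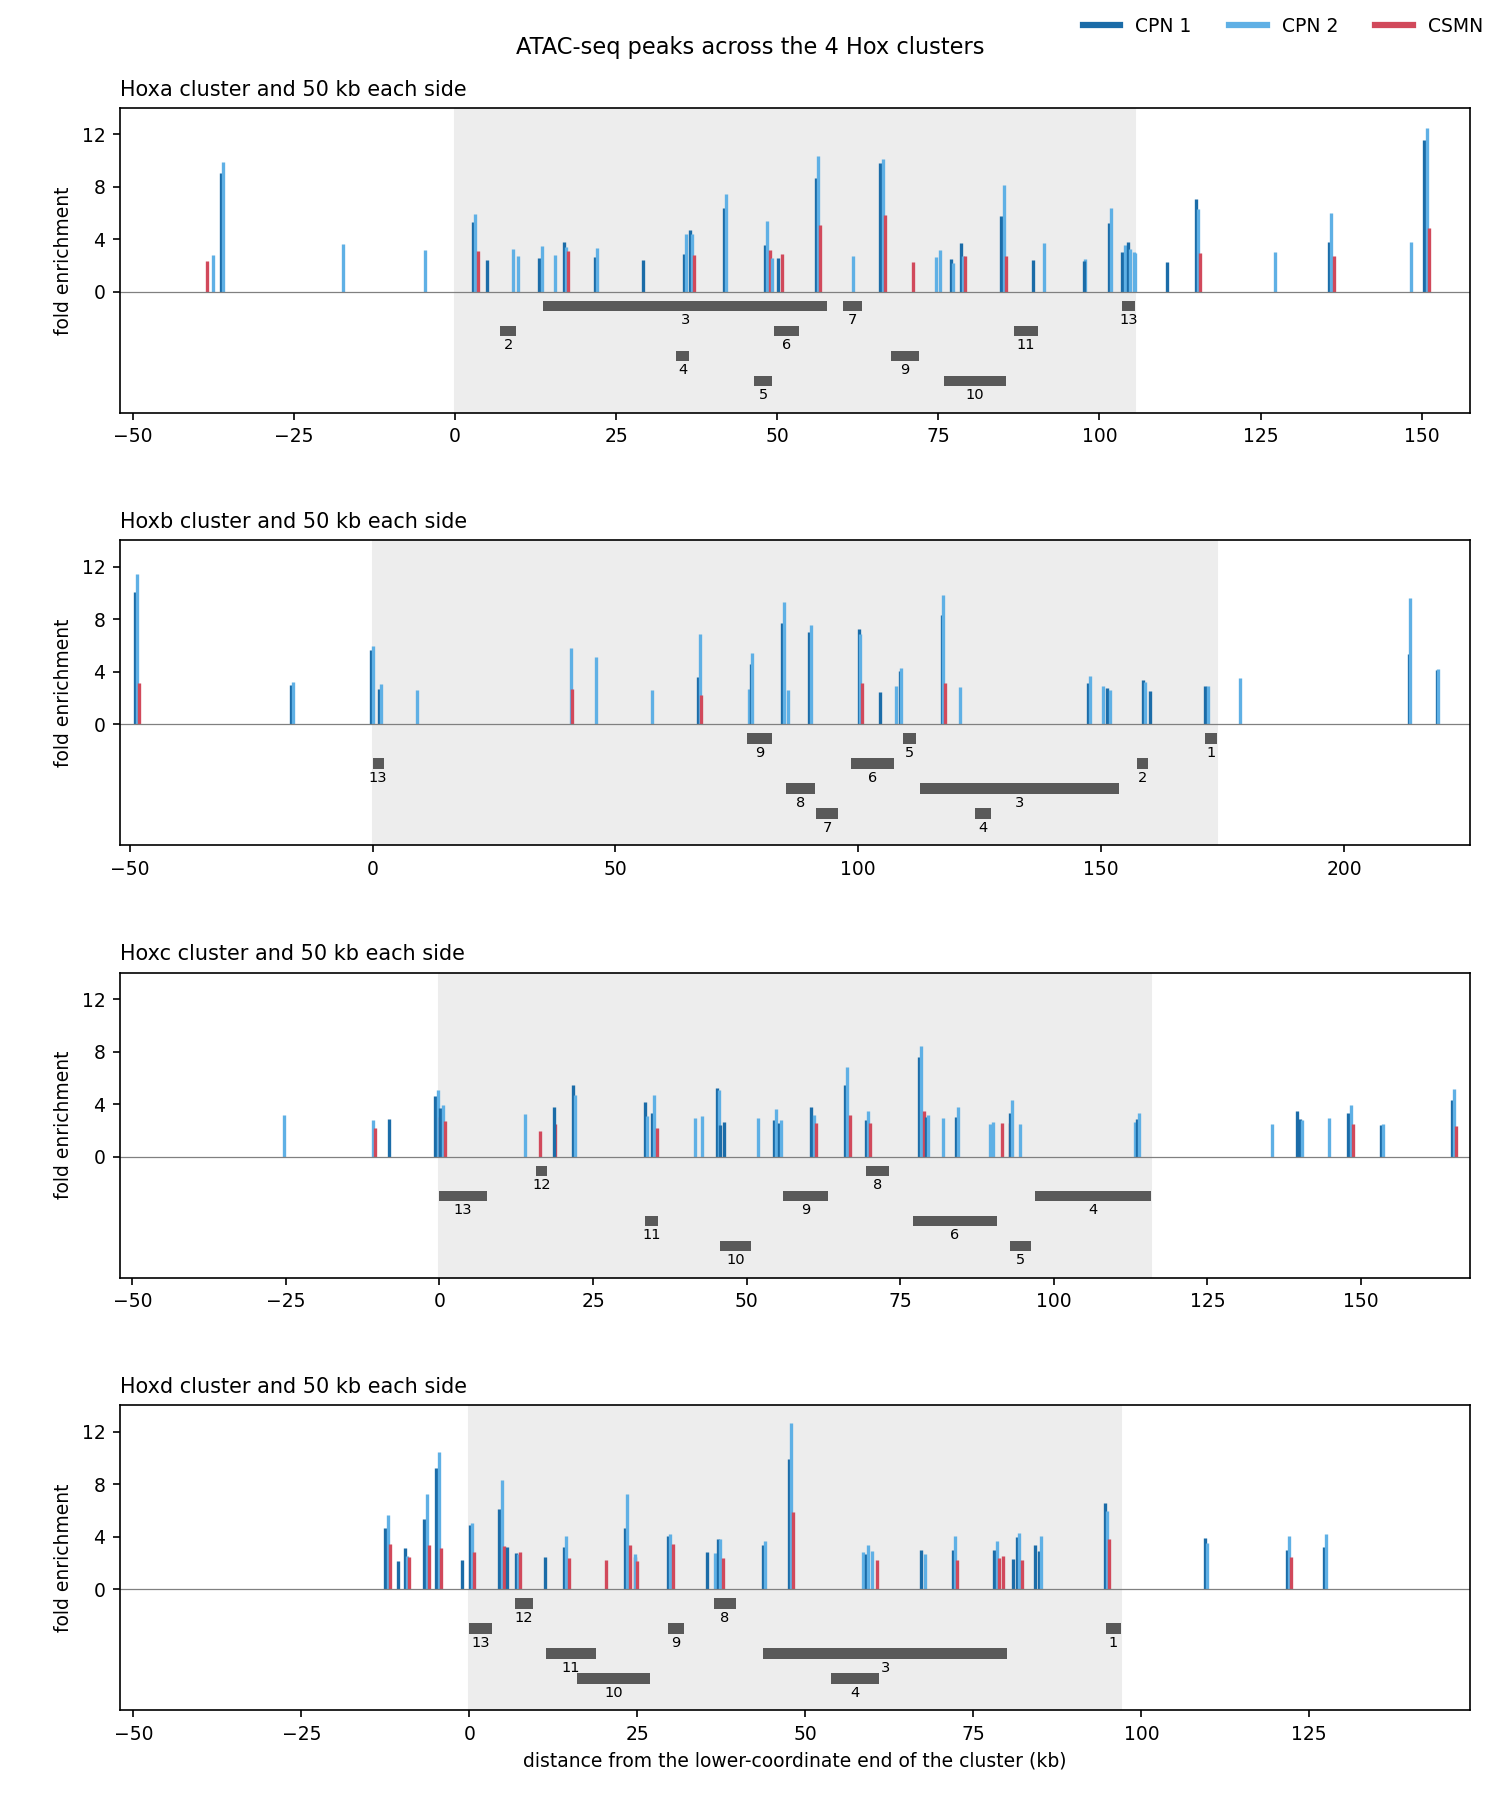
Peaks of CPN 1, CPN 2 and CSMN across the 4 Hox clusters and 50 kb on each side, drawn at the centre of their merged region (small sideways offsets keep the libraries apart) with the fold on the vertical axis and the distance in kb on the horizontal axis. Grey shading marks the cluster and dark bars the numbered Hox genes. Peaks of 1 library in the same region are drawn as 1 line at the highest fold. The Hoxd span holds 18 CSMN peaks, 2 of them in 1 region, and the Hoxb span holds 4.

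When the peaks of the 3 lists were merged, the 4 windows gave 156 regions. Of these, 41 (26.3%) had a peak in all 3 lists and 36 (23.1%) were CPN-only, that is in both CPN lists and not in CSMN. Another 10 (6.41%) were CSMN-only, 4 (2.56%) were shared by CSMN and 1 CPN library and 65 (41.7%) were in 1 CPN library alone. Over all 204313 regions the shares were 30.6%, 19.4%, 11.8%, 4.47% and 33.8% in the same order. With lists of equal length, each held to its strongest peaks, 17 of 90 regions were CPN-only and 14 were CSMN-only, so the balance of these classes moved with list length. All 3 lists shared 17 of 39 regions in the Hoxd window (43.6%), 11 of 44 in Hoxa (25%), 9 of 42 in Hoxc (21.4%) and 4 of 31 in Hoxb (12.9%). CPN-only regions were 5, 9, 11 and 11 in the same order, and Hoxb had no CSMN-only region. With a single CPN library in the class, CPN-only regions numbered 83 without CPN 1 and 58 without CPN 2. The 10 CSMN-only regions (4 in Hoxc, 4 in Hoxd and 2 in Hoxa) were all weak, with folds from 2.0 to 2.60 and −log10 q from 1.32 to 4.13.

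**Figure D4:**
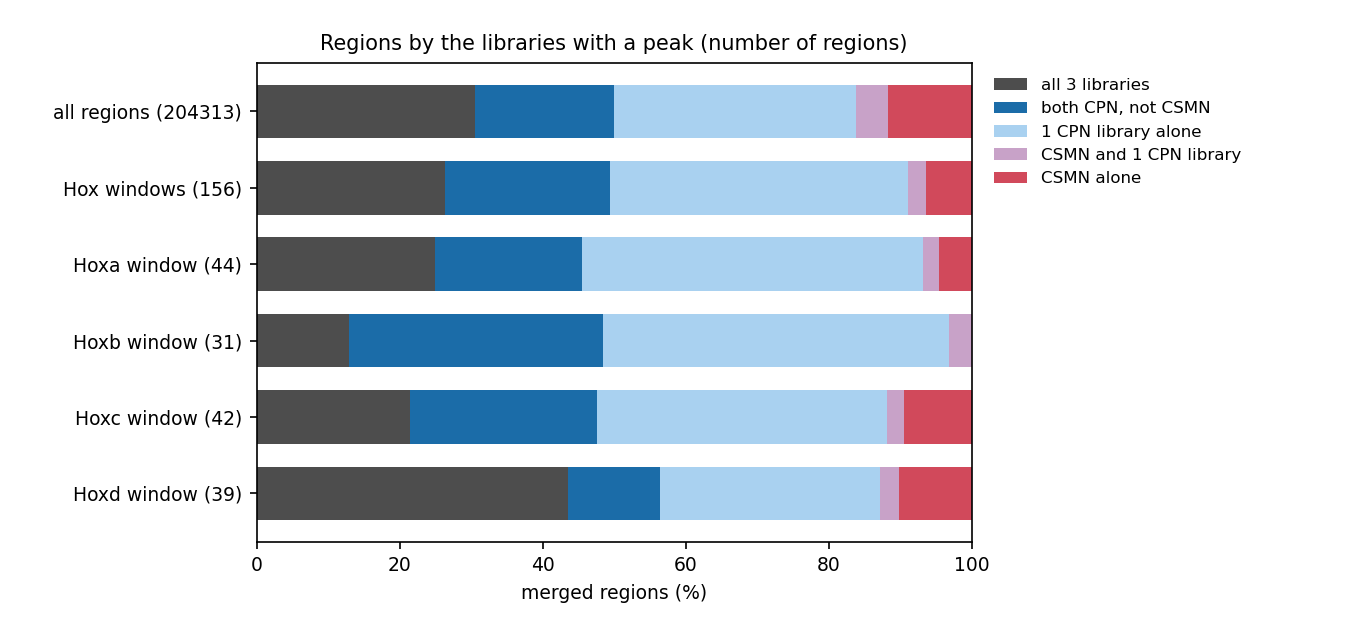
Merged regions by the libraries that had a peak in them (horizontal axis, percent of regions), for all regions, the 4 Hox windows together and each window, with the number of regions in brackets. The share in all 3 libraries is 43.6% in the Hoxd window and 12.9% in the Hoxb window, beside 30.6% of all regions.

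At like fold the regions showed the same order of clusters as the genes. Of all regions with a peak in both CPN lists and a lower fold from 4 to under 8, 28.5% had no CSMN peak. In the spans a CSMN peak was found for 5 of 5 such regions in Hoxd, 3 of 5 in Hoxa, 2 of 4 in Hoxc and 1 of 6 in Hoxb. Below a fold of 4, where 64.2% of all such regions had no CSMN peak, the matched regions were 6 of 9 in Hoxd, 3 of 9 in Hoxa, 4 of 11 in Hoxc and 1 of 4 in Hoxb.

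Merged regions within 1 kb of a Hox gene end and those farther away had similar median folds. These were 3.34, 3.53 and 2.69 within the limit and 3.35, 3.37 and 2.69 beyond it. Within the spans 58 regions came within 1 kb of a Hox gene end and 12 of them had a peak in all 3 lists, while 17 of the 61 regions farther away did. Of the sites beyond the limit, the highest folds were at chr2:74715773-74716385, inside Hoxd3 and over the antisense transcript Hoxd3os1, 3780 bp from the Hoxd3 end, with 9.92 in CPN 1, 12.7 in CPN 2 and 5.90 in CSMN. In Hoxa a region at chr6:52221365-52222050, in the gap between Hoxa7 and Hoxa9 with no annotated gene, had 9.79, 10.1 and 5.88, and at 1047 bp it only just passed the limit. In Hoxb the region at chr11:96311626-96312026 inside Hoxb3 had 8.33, 9.82 and 3.12, and that at chr11:96294463-96294976 inside Hoxb6 had 7.29, 6.87 and 3.12. In Hoxc the region at chr15:102999248-102999872 inside Hoxc6 had 7.63, 8.43 and 3.47, at 1022 bp. The merged regions at Hoxa3 (8.68 in CPN 1 and 10.4 in CPN 2) and at Hoxb8 (7.75 and 9.35, no CSMN peak) counted as within the limit. Their folds were in the same range, and at Hoxa3 only the CPN 1 peak itself came within 1 kb.

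Between genes, a region between Hoxd13 and Hoxd12 (chr2:74672788-74673229) had 6.13, 8.32 and 3.29, and 1 between Hoxc9 and Hoxc8 (chr15:102987224-102987806) had 5.44, 6.83 and 3.21. In the flanks the highest folds were at chr6:52305864-52306464, 44984 bp beyond Hoxa13 with no annotated gene, at 11.5, 12.5 and 4.88. The strongest left flank peaks lay in Ttll6, 48193 bp from Hoxb13 (10.1, 11.4 and 3.12), and in the uncharacterised gene Gm31790, 4403 bp from Hoxd13 (9.20, 10.4 and 3.12). Evx2, a homeobox gene next to Hoxd13, had a region with 4.63, 5.63 and 3.47. The right flank of Hoxb held CPN peaks up to 9.64 fold and no CSMN peak. On the other side of Hoxa, a region at chr6:52119257-52119572 with 9.02 and 9.92 in CPN had none in CSMN. The flanks of Hoxc held folds up to 5.13 and the right flank of Hoxd up to 4.24. No genome was used here, so the letters of these intergenic sites, and any CTCF motif in them, were not read.

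Other annotated genes inside the spans overlapped many of the same peaks. Of 24 long noncoding RNA genes, 14, 17 and 8 overlapped a peak in CPN 1, CPN 2 and CSMN. Those with a peak in all 3 lists were Hotairm2 (5.34, 5.89 and 3.12), LOC115490409 (4.74, 4.38 and 2.78), Hoxaas3 (8.68, 10.4 and 5.09), Gm53 (3.59, 6.85 and 2.26), Hoxb5os (7.29, 6.87 and 3.12), Gm38462 (3.82, 3.80 and 2.34), Hoxd3os1, and Haglr (6.59, 5.99 and 3.82), which lies beside Hoxd1. Hotairm1, Hoxaas2, 5730596B20Rik, Hoxa11os, Hoxb3os and Gm14424 had a peak in both CPN lists only, with folds up to 5.89, and Gm52902, Gm30134 and Gm11538 in CPN 2 only, up to 3.18. None of the 6 microRNA genes (Mir196b, Mir196a-1, Mir10a, Mir196a-2, Mir615 and Mir10b) overlapped a peak in any list. Hotair, the Hoxc transcript known for its proposed link to Polycomb complexes, overlapped none. The microRNA genes are far shorter than the long noncoding RNA genes, and peaks covered 5.35%, 4.86% and 2.82% of the spans. Few microRNA overlaps were therefore possible, and no share over all such genes is given here for either kind. Many of these genes lie over or beside a Hox gene, and peaks carry no strand, so a peak cannot be assigned to either.

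Genes that work with or upstream of the Hox genes were read by the same rule. Of all genes, 69.2%, 70.3% and 66.7% had a gene-end peak in CPN 1, CPN 2 and CSMN. All 9 TALE cofactor genes, which encode the PBX, MEIS and PKNOX partners, had a gene-end peak in all 3 lists, with median folds of 11.3, 10.9 and 7.51. The 6 ParaHox genes, relatives of the Hox genes in other clusters, had peaks at 6, 4 and 4 genes and median folds of 3.34, 4.53 and 2.93, close to those of the Hox genes. Of 12 retinoic acid receptors and hindbrain regulators 11, 11 and 8 had one, and Rarb had none in any list. Cyp26b1 (5.06 and 3.96), Egr2 (1.89 and 2.23) and Rara (3.47 and 3.86), named after their values were seen, had peaks in both CPN lists and not in CSMN. That pattern was seen at 3.34% of all genes. The lower CPN fold of each was under 4, where 38.8% of all genes with a peak in both CPN lists had none in CSMN. Developmental transcription factors of other tissues had peaks at 35, 35 and 30 of 40 genes, with medians of 4.31, 4.18 and 3.33. Gata3, Gata4 and Pax5 had none. The medians of this list were close to those of the Hox genes, and its share with a CSMN peak was 75% beside 43.6% of the Hox genes. Cortical projection neuron transcription factors had peaks at 17, 17 and 16 of 17 genes, with medians of 7.30, 7.41 and 4.80.

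Genes of the chromatin machinery known to act on Hox clusters were read by the same rule, beside median folds of 12.8, 12.7 and 7.81 over all genes with a gene-end peak. Those of Polycomb repressive complex 2, which methylates histone H3, had peaks at 11, 11 and 11 of 11 genes with median folds of 15, 15.8 and 11.2. For Polycomb repressive complex 1 they were at 15, 15 and 15 of 16 genes with medians of 12, 11.8 and 7.91, and Cbx7 had none. MLL complex and H3K27 demethylase genes, which oppose Polycomb, had 6, 7 and 6 of 8, and Ash2l had none. CTCF and cohesin genes had 4, 4 and 4 of 7 (57.1%), beside 69.2%, 70.3% and 66.7% of all genes, too few genes to read as a difference. Rad21, Stag1 and Nipbl had none. The gene-end rule can miss a peak over a promoter, as at Hoxd10, so a gene without a gene-end peak may still have an open promoter. A peak at a gene end shows open DNA there and is not a measure of transcription.

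**Figure D5:**
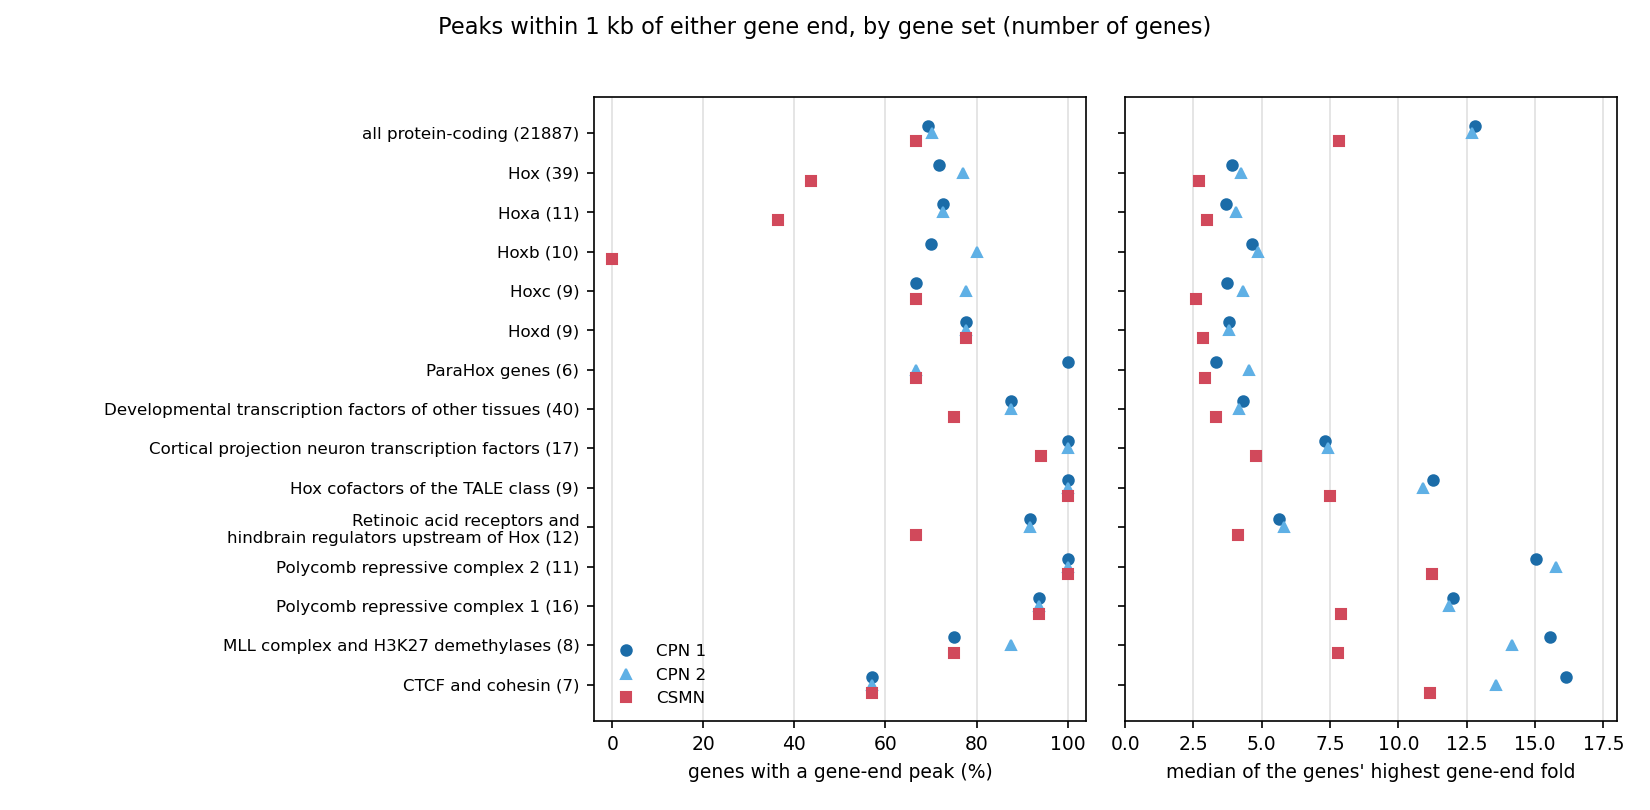
Share of genes with a peak within 1 kb of either end (left, percent) and median over those genes of their highest gene-end fold (right), for all protein-coding genes, the Hox genes, each Hox cluster and the gene lists, with the number of genes in brackets. Hox genes sit at a median fold of 3.92, 4.24 and 2.69, beside 12.8, 12.7 and 7.81 for all genes, and Hoxb has no CSMN point on the right because it had no CSMN peak.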

How the data were processed

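ATAC-seq peak lists of 2 CPN libraries and 1 CSMN library were used as deposited, 1 list per library. The build mm10 and the tools bedtools 2.29.2, MACS2 2.2.7.1 and BWA 0.7.17 are named in the submitters' processing notes, with no role or order. Not given in the sources used here are read totals and filters, duplicate removal, the shift of cut sites for the transposase and the peak mode. Filters and the caller's threshold decide which weak peaks are listed, so a missing peak is not a measured absence. For each peak the authors deposited a fold enrichment ratio at the summit, a −log10 p, a −log10 q, a score and the summit's offset in bp from the peak start. Folds are those per-peak values and were used to describe and rank peaks within a list.

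Gene bodies came from the RefSeq gene table of GRCm38.p6, which has no strand or transcription start, so both gene ends were used. Starts and sequences came from RefSeq promoter entries of the same build. Peaks were matched at an overlap of 1 bp, and overlapping peaks were joined into regions across the lists with pandas 2.3.3 and numpy 2.4.6 under Python 3.11.15. The merge was checked against bedtools 2.31.1 (204313 regions in both) and tested on simulated data. A count was called moved when it changed by more than 1.5 times, and a covered share when it changed by more than the SD of both CPN libraries or, in CSMN, its binomial interval. Values were given for the 25 Hox genes of highest fold in any list, the Hox genes without a peak by symbol, other genes in a span that overlap a peak, genes at the strongest flanking peak of each side, and listed genes without a peak in any list. Hox members, gene lists and settings were chosen with earlier results of these data known. No p-value was computed, since CSMN had 1 library. Alternatives tried were a −log10 q of at least 5, lists of equal length, no peaks under 150 bp, limits of 500 bp and 5 kb, transcription starts only, placement by summit, flanks of 0 and 100 kb, a merge at 50% of the shorter peak, and leaving out each CPN library. Values of 1 Hox gene are counted in the totals and are not reported here on their own.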

Additional observations from a re-analysis of the deposited data

How the results depend on the processing

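With 1 CSMN library and unknown depth, no count here has an error between CSMN replicates. Keeping a −log10 q of 5 or more left CSMN gene-end peaks at 7 Hox genes, a peak in all 3 lists at 6 and none at 15. They gave 61, 72 and 24 window peaks in CPN 1, CPN 2 and CSMN, 83 regions, 22 of them in all 3 lists and 2 CSMN-only, and 3.92%, 3.37% and 1.56% of the spans covered. Lists of equal length gave 12 Hox genes without a peak, 61 and 68 window peaks in CPN 1 and CPN 2, 90 regions, 17 of them CPN-only, and 3.92% and 3.23% covered. Without peaks under 150 bp, 10 Hox genes had none, CPN 2 had 82 window peaks, and 4.02% (CPN 2) and 2.61% (CSMN) of the spans were covered. At 500 bp, 11 Hox genes had a CSMN peak, 9 had one in all 3 lists and 11 had none. At 5 kb these were 30, 30 and 0. Transcription starts, known for 22 genes, gave 15, 15 and 9 genes in CPN 1, CPN 2 and CSMN, 9 in all 3 lists and 5 in both CPN lists alone. Leaving out a CPN library gave 58 to 83 CPN-only regions. With the lists of equal length, 12 of the 39 genes lost a library. The Hoxb genes had 0 CSMN gene-end peaks in the main count, and most settings could not raise that count. The q limit, the width limit, the 500 bp limit and placement by summit only remove peaks. Lists of equal length leave the CSMN list, the shortest, unchanged. Transcription starts, known for 3 Hoxb genes, also gave 0, and the 5 kb limit gave 3 of 10. In CPN 1 and CPN 2, lists of equal length left 6 and 5 of 10 Hoxb genes with a peak. With lists of equal length the order of the lists turned in Hoxc, from 6, 7 and 6 genes to 4, 5 and 6, and in Hoxd, from 7, 7 and 7 to 6, 5 and 7. CPN-only against CSMN-only regions turned from 11 and 4 to 3 and 5 in Hoxc, and from 5 and 4 to 3 and 6 in Hoxd. The cause of each change was not tested, beyond the fewer peaks or genes that a stricter setting leaves by construction. The replicate numbers come from the sample titles, which state no pairing between CPN and CSMN, so no paired analysis was made.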
